A study of Mus musculus with 24 samples.

Results

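Interferon gamma (IFN-γ) is made by activated T cells and NK cells and acts on most other cells of a tumor through its receptor and the Janus kinases bound to it. Among the transcripts it raises most are those of the large GTPases, the guanylate-binding proteins (GBPs) and the immunity-related GTPases (IRGs), which coat and disrupt the vacuoles of intracellular microbes, and of Irf1, a transcription factor that in turn acts on many IFN-γ targets. In tumors these transcripts are widely read as a trace of IFN-γ acting on the cells that carry them.

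Levels of 9 such genes were followed in CD45+ cells enriched from EMT6-hHER2 tumors: the regulator Irf1, the guanylate-binding proteins Gbp2, Gbp3, Gbp5 and Gbp7, the regulatory IRGs Irgm1, Irgm2 and Igtp, and the effector IRG Iigp1. They were chosen by symbol, as IFN-γ-induced GTPases and their regulator, and all 9 were found among the 16996 genes measured. EMT6 is a mammary carcinoma line of BALB/c mice, here made to express human HER2, and the tumors grew in the mammary fat pad of wild-type, immunocompetent female Balb/c mice given as 10 to 12 weeks old. Each of the 4 groups held 6 mice with 1 library per mouse. One group was untreated (agent none) and the others received 1 intravenous dose, at a tumor volume of 80 mm3, of the HER2 antibody trastuzumab (20 mg/kg), of T-DM1 (15 mg/kg), in which trastuzumab carries a tubulin poison, or of T-PNU (1 mg/kg), in which it carries an anthracycline derivative. Tumors were taken 10 days after treatment. By the study's account T-PNU tumors were then smaller than at dosing, while T-DM1 and trastuzumab did not prevent growth in its efficacy experiments. Tumor size at harvest is not given per sample and cannot be told apart from treatment. The trastuzumab group received the antibody without a payload, and no group received a non-binding conjugate. The agents were given at different doses, so the groups compare regimens and not payloads at a matched dose.

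The values are log2 values that the authors normalized for library size. Sample medians lay between 8.73 and 8.87, and the depth behind the values is unknown. Ptprc, which encodes CD45, lay between 14.01 and 15.52 and its mean was at the 99.1 percentile of all genes. No ungated sample was measured, so this level does not show how far CD45+ cells were enriched. The study checked purity by flow cytometry. Transcripts of cells that lack CD45 were also abundant: Col1a2, a collagen gene of fibroblasts, lay between 13.5 and 16.2, at the 99.5 percentile. In such mixed samples fewer expressing cells and less RNA per cell cannot be told apart. The labels of untreated and treated libraries carry different series of numbers whose meaning is not given. Among treated libraries the numbers also run in blocks by group. What these numbers stand for cannot be told apart from treatment. The study's heatmaps show 20 of the 24 samples, without B1 and C1 of the untreated group and E2 and B3 of the trastuzumab group, and results that rest on them are given with and without them.

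The upstream sequences show the elements through which these genes are usually said to respond. One is the gamma-activated site, or GAS element (TTCNNNGAA). IRF factors, Irf1 among them, bind the interferon-stimulated response element, whose core was searched as GAAANNGAA or its reverse TTCNNTTTC. Both have 9 letters and were sought on both strands. RefSeq promoter windows of 300 bases, 250 before and 50 after the start on GRCm38.p6, were at hand for 8 of the 9 genes. Stretches that hold them are shown for the members whose elements differ in kind or are shared. GAS elements and ISRE cores are in capitals, and each stretch ends before the RefSeq start.
Irf1, chr11:53769914-53769942, plus strand: acagcctgatTTCCCCGAAatgatgaggc
Gbp2, chr3:142620595-142620623, plus strand: ctcttttagtTTCACTTTCactgtcttaa
Gbp3, chr3:142559993-142560021, plus strand: acacagtTTCAGTTTCTATTTCccagatc
Gbp7, chr3:142530229-142530258, plus strand: tTTCCAGGAAaagcagaagcTTCTCAGAAa
Gbp7, chr3:142530274-142530302, plus strand: tgtgtgcagtTTCAGTTTCagttctccat
Irgm1, chr11:48871429-48871457, minus strand: gtttcaaGAAATAGAAACCGAAactgatt
Igtp, chr11:58199506-58199535, plus strand: gccatTTCTAGGAActGAAACTGAAagctg
Irgm2, chr11:58214897-58214926, plus strand: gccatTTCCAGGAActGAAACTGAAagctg

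The members differed in which element they held. Irf1 had 1 GAS element, beginning 90 bases before its start, and no ISRE core. Gbp2, Gbp3 and Irgm1 had ISRE cores and no GAS element within the window, with the paired cores of Gbp3 and of Irgm1 overlapping each other. Gbp5, Gbp7, Igtp and Irgm2 had both. In Gbp5 these were GAS elements beginning 245 and 52 bases and an ISRE core beginning 164 bases before the start. In all, 7 of the 8 genes held an ISRE core, against 9.76% of the 27025 genes with a window, and 5 held a GAS element, against 9.55%. Both were present in 4 of the 8, against 1.42% of all genes. Igtp and Irgm2 had their GAS and ISRE letters 11 bases apart, first base to first base, and 77 of the 80 bases around the GAS were identical between them. A match of letters is a description of the window and not of binding in these cells, and a window without a match says nothing about the factor. By GENCODE M21 the Irf1, Gbp3, Gbp7 and Igtp stretches lie upstream of the gene model, the Irgm2 stretch lies in an intron of a longer Irgm2 model, the Irgm1 stretch lies in an exon of an Irgm1 transcript with an earlier start, and 22 bases of the Gbp2 stretch do so in Gbp2.

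Most of the genes sit in clusters of related copies. On GRCm38 the GBPs lie side by side on chromosome 3, Gbp5 at 142493978 to 142522344, Gbp7 at 142530342 to 142550149, Gbp3 at 142560026 to 142573209 and Gbp2 at 142620602 to 142638008. On chromosome 11, Irgm1 lies at 48861968 to 48871683, Irf1 at 53770014 to 53778374, Igtp at 58199556 to 58207591 and Irgm2 at 58199618 to 58222782. Igtp and Irgm2 share 162 exonic bases on the same strand, which is 8.01% of the exonic bases of Igtp and 4.39% of those of Irgm2. How reads in shared exons and in near-identical stretches of paralogs were assigned is not seen in the values, so the members of each cluster are not fully separate measurements.

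Across groups, mean levels were highest after T-PNU for 8 of the 9 genes, Gbp2 being the exception with its highest mean after trastuzumab. The lowest mean was that of T-DM1 for Irf1, Irgm1, Irgm2, Igtp and Iigp1, and that of untreated tumors for the 4 GBPs. With limma over all 24 samples and Benjamini-Hochberg adjustment over 16996 genes, 2 members were called at an adjusted p under 0.05, Irf1 and Irgm1, both higher after T-PNU than after T-DM1. No member was called in the other 5 comparisons.

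**Figure D1:**
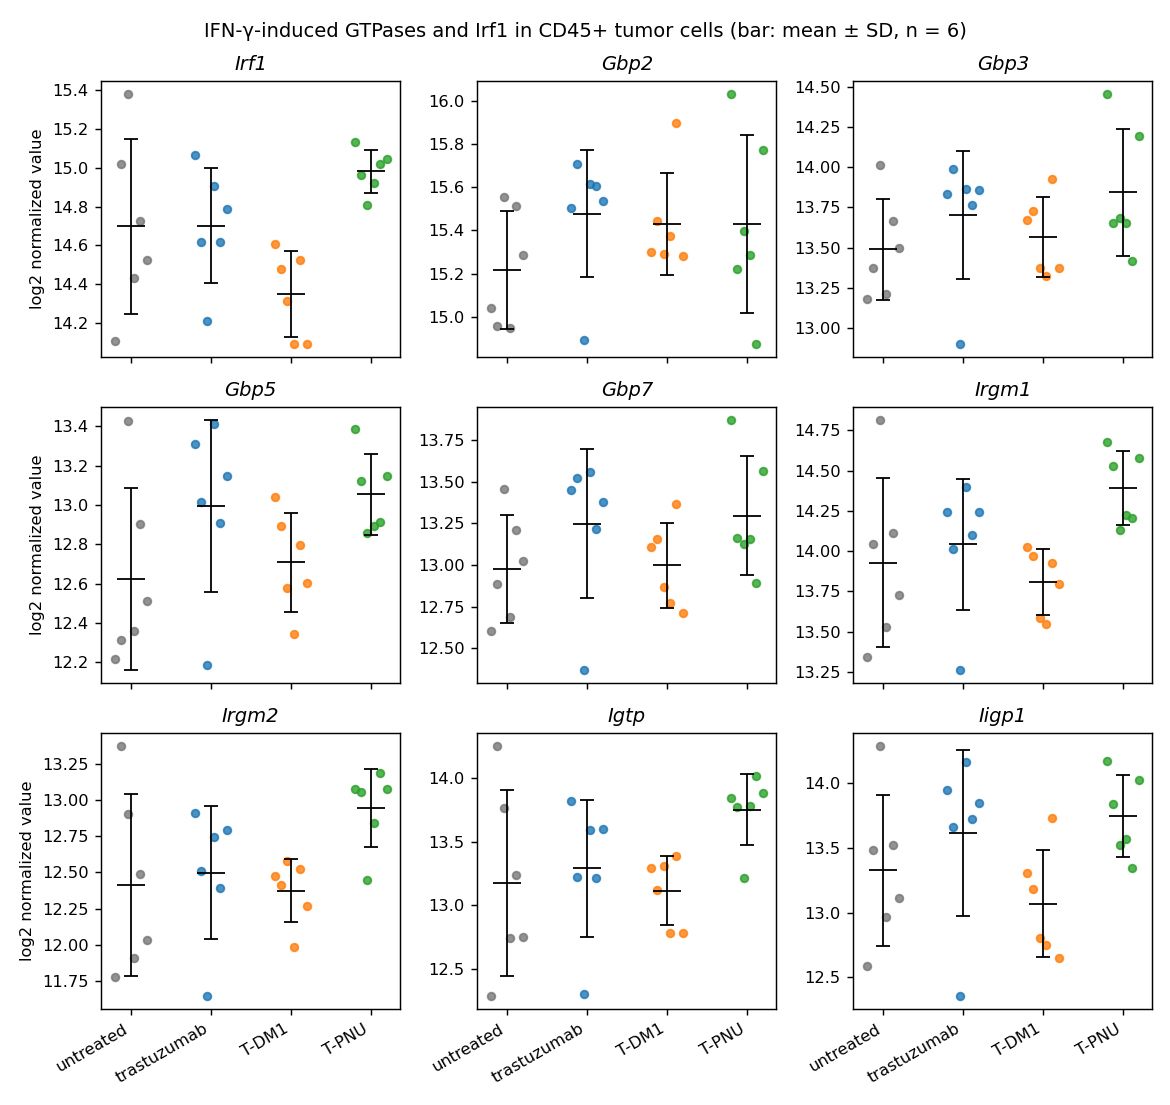
Log2 normalized value (y axis, not starting at 0 and scaled per gene) of the 9 genes in each sample (points) of the 4 groups (x axis), with the mean and SD of 6 samples (bars). For Irf1 and Irgm1 every T-PNU sample lies above every T-DM1 sample, and 1 trastuzumab sample lies far below the other 5 in most panels. How often genes at large lack such overlap was not computed.

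Irf1, the transcription factor, had the clearest difference between the conjugates. Its log2 values were lowest at 14.81, median 14.99 and highest at 15.13 after T-PNU, and 14.09, 14.40 and 14.61 after T-DM1. Untreated samples spread far more widely, from 14.11 through a median of 14.62 to 15.38, and trastuzumab samples from 14.21 through 14.70 to 15.07. Thus the T-PNU and T-DM1 samples did not overlap, while the T-PNU samples and 4 of the 6 T-DM1 samples lay within the span of the untreated ones. The difference of T-PNU and T-DM1 means was 0.63 on the log2 scale (SE 0.165, 95% interval 0.29 to 0.97, fold 1.55, limma adjusted p = 0.0081). Against untreated tumors Irf1 differed by 0.28 after T-PNU (limma adjusted p = 0.274) and by -0.35 after T-DM1 (limma adjusted p = 0.206), and trastuzumab and untreated means were nearly equal at 14.70 each.

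Among the regulatory IRGs, which guard host membranes against the effector GTPases, Irgm1 was the other member called. Its values ran from 14.13 through a median of 14.38 to 14.68 after T-PNU and from 13.55 through 13.86 to 14.03 after T-DM1, again without overlap. The untreated samples ran from 13.35 through 13.88 to 14.82 and the trastuzumab samples from 13.26 through 14.17 to 14.40. T-PNU exceeded T-DM1 by 0.58 (SE 0.20, interval 0.17 to 0.99, limma adjusted p = 0.0326). That call was less firm than the one for Irf1, as it was lost in 5 of 24 fits that each left out 1 sample (T-PNU G1, H1 or D2, T-DM1 E3 or F3), with an adjusted p of up to 0.0756, while Irf1 was called in all 24.

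Irgm2 and Igtp followed each other most closely of all members, with a Pearson r of 0.986 over the 24 samples. Irgm2 ran from 12.45 through 13.06 to 13.19 after T-PNU and from 11.98 through 12.44 to 12.58 after T-DM1, and from 11.77 through 12.26 to 13.38 in untreated and 11.64 through 12.63 to 12.91 in trastuzumab samples. Igtp ran from 13.21 through 13.81 to 14.01 after T-PNU, from 12.78 through 13.21 to 13.39 after T-DM1, from 12.29 through 13.00 to 14.25 in untreated tumors and from 12.31 through 13.41 to 13.82 after trastuzumab. For both genes 5 of 6 T-PNU samples lay above all T-DM1 samples, the exception being T-PNU A2. The differences, 0.58 (SE 0.232) for Irgm2 and 0.64 (SE 0.267) for Igtp, missed the threshold, with limma adjusted p of 0.063 and 0.0727. The single untreated sample B1 held the highest value of all 24 samples in both genes.

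Iigp1, the effector IRG that is loaded onto microbial vacuoles, had the largest difference of means between the conjugates, 0.68 (SE 0.274, interval 0.11 to 1.24), but its samples overlapped and the call was missed (limma adjusted p = 0.0645). Its values ran from 13.35 through 13.71 to 14.17 after T-PNU and from 12.65 through 13.00 to 13.73 after T-DM1. In untreated tumors they ran from 12.59 through 13.30 to 14.29, and after trastuzumab from 12.35 through 13.78 to 14.16. T-DM1 G3 was the sample that reached into the T-PNU span.

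The GBPs, which bind and lyse microbial membranes and feed inflammasomes, differed less between the conjugates. Gbp2 was level, with medians of 15.34 in both, T-PNU running from 14.87 to 16.03 and T-DM1 from 15.28 to 15.90, and the interval of the difference ran from -0.36 to 0.36. Its untreated samples ran from 14.95 through 15.17 to 15.55 and its trastuzumab samples from 14.89 through 15.57 to 15.71. Its spread was widest within T-PNU (SD 0.413).

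Gbp5, which promotes inflammasome assembly, ran from 12.86 through 13.02 to 13.39 after T-PNU, from 12.34 through 12.70 to 13.04 after T-DM1, from 12.21 through 12.43 to 13.43 in untreated tumors and from 12.18 through 13.08 to 13.41 after trastuzumab. T-PNU minus T-DM1 was 0.35 (SE 0.195, limma adjusted p = 0.178), with overlap. Gbp3 and Gbp7 followed each other closely (r = 0.978). Gbp3 ran from 13.42 through 13.67 to 14.46 after T-PNU, 13.32 through 13.52 to 13.93 after T-DM1, 13.18 through 13.43 to 14.01 in untreated tumors and 12.90 through 13.85 to 13.99 after trastuzumab. Gbp7 ran from 12.89 through 13.16 to 13.87 after T-PNU, 12.71 through 12.99 to 13.37 after T-DM1, 12.60 through 12.95 to 13.46 in untreated tumors and 12.37 through 13.41 to 13.56 after trastuzumab. In both, T-PNU G1 and D2 lay above the other samples of their group, and T-PNU minus T-DM1 came to 0.28 (SE 0.189, limma adjusted p = 0.259) and 0.30 (SE 0.192, limma adjusted p = 0.234).

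The counts of members are read against those of all genes. In T-PNU minus T-DM1, 2 of 9 members were higher and none lower, where 12.4% of all genes were called higher and 29.8% in either direction. The median difference of the members was 0.58 and that of all genes 0.03. In T-PNU minus untreated 0 of 9 were called, where 0.188% of all genes were. All 9 differences were positive there, from 0.21 for Gbp2 to 0.58 for Igtp with a median of 0.42 against 0.01 for all genes. At an unadjusted limma p under 0.05 there were 4 members, where 4218 of 16996 genes passed. The members' adjusted p there ran from 0.161 to 0.427. No member was called in T-PNU minus trastuzumab (0.00588% of all genes), trastuzumab minus untreated (0.259%), T-DM1 minus untreated (6.27%) or T-DM1 minus trastuzumab (0.647%). Irf1 alone had an unadjusted limma p under 0.05 in T-DM1 minus untreated, where 3973 of 16996 genes did. The same held in T-DM1 minus trastuzumab, where 2604 genes did. No member did in T-PNU minus trastuzumab (3308 genes) or trastuzumab minus untreated (1491 genes). The comparisons share groups, so they are not independent of each other.

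How many members were called in T-PNU minus untreated depended on whether the 4 samples absent from the study's heatmaps were used. Of these samples, only B1 and C1 are untreated and enter that difference of means. Untreated C1 held the highest value of all 24 samples in Irf1, Gbp5, Irgm1 and Iigp1, and untreated B1 in Irgm2 and Igtp. With the 20 remaining samples, 5 of 9 members were called higher in T-PNU minus untreated, where 15.3% of all genes were. These were Igtp at 0.99 (SE 0.215, limma adjusted p = 0.00516), Irgm2 at 0.90 (SE 0.187, limma adjusted p = 0.00448), Irgm1 at 0.71 (limma adjusted p = 0.0104), Gbp5 at 0.56 (limma adjusted p = 0.0318) and Irf1 at 0.53 (limma adjusted p = 0.00919), and in Irgm1 and Irf1 the T-PNU samples lay above all 4 untreated ones. In T-PNU minus trastuzumab 3 members were called, where 14.6% of all genes were higher: Igtp at 0.67, Irgm2 at 0.63 and Irf1 at 0.39 (limma adjusted p = 0.0311, 0.0234 and 0.0367). In T-PNU minus T-DM1, Irgm2, Igtp and Iigp1 joined Irf1 and Irgm1, 5 of 9, where 19.8% of all genes were higher. Gbp2, Gbp3 and Gbp7 were not called in any of the comparisons with these 20 samples.

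Keeping all 24 samples but weighting each by its fit to its group called 7 of 9 members higher in T-PNU minus untreated (17.1% of all genes), 5 of 9 in T-PNU minus T-DM1 (21.9%) and 0 of 9 in T-PNU minus trastuzumab. A fit of the T-PNU and T-DM1 samples alone called 6 of 9 (15.4%). Leaving out untreated C1 alone called 2 members, Gbp5 and Irgm1, in T-PNU minus untreated. Leaving out 1 sample at a time, T-PNU minus T-DM1 kept between 1 member (without T-PNU G1) and 5 (without trastuzumab G2). The share of all genes called was not computed for fits without 1 sample, nor for the weighted fit against trastuzumab. Those counts are therefore not read as results about the members.

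**Figure D2:**
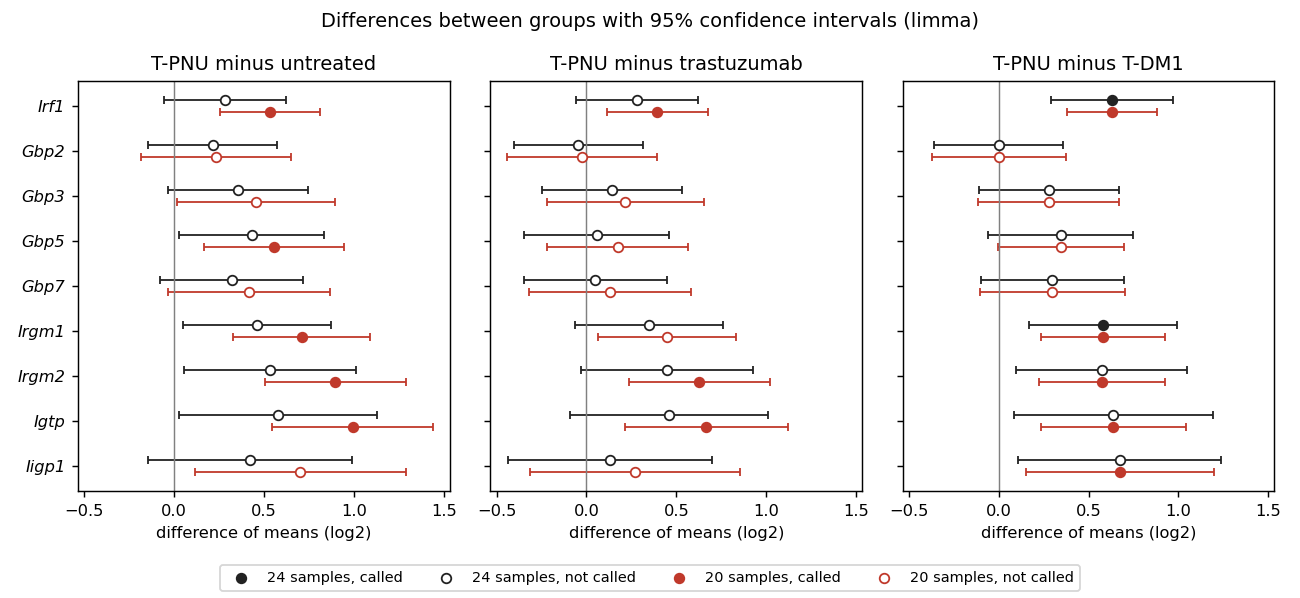
Difference of group means on the log2 scale (x axis) for the 9 genes (y axis) in 3 comparisons, with 95% confidence intervals from limma over 24 samples (black) or the 20 samples of the study's heatmaps (red), filled where the adjusted p was under 0.05. Only Irf1 and Irgm1 in T-PNU minus T-DM1 are filled in black, while 5, 3 and 5 genes are filled in red.

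Markers of cell composition moved with the difference between the conjugates. Of 4 leukocyte genes, Ptprc, Cd52 and Laptm5 were higher after T-PNU than after T-DM1, Ptprc by 0.76 (SE 0.186, limma adjusted p = 0.00569) without overlap, and Coro1a differed by 0.28 and was not called. The mean deviation of these 4 genes ran from -0.08 to 0.59 in T-PNU and from -0.38 to 0.01 in T-DM1 samples. Of 10 tumor and stroma genes 5 were lower after T-PNU, among them Col1a1 by 1.62, Pdgfrb by 1.57 and Krt8 by 0.96 on the log2 scale, and Krt14, Epcam and Pecam1 were higher, so the list had no single direction. Its mean deviation ran from -0.65 to 0.23 after T-PNU and from 0.16 to 0.43 after T-DM1. Krt14 at a mean of 4.99 and Epcam at 7.40 had the lowest levels of that list. The 4 leukocyte genes rose by 0.46 on average, and relative to that mean, a scaling chosen after these values were seen, no member was called: the difference was 0.17 for Irf1 (SE 0.145, limma adjusted p = 0.321), 0.12 for Irgm1 (limma adjusted p = 0.607), 0.21 for Iigp1 and -0.46 for Gbp2. The same scaling moved the median of all genes to -0.43. The part of leukocyte content in the differences of Irf1 and Irgm1 was not tested beyond this.

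T cell and NK cell genes, the usual sources of IFN-γ, had positive differences between T-PNU and T-DM1 in all 12 measured, with a median of 0.85, and 4 were called higher (Gzmb, Nkg7, Ncr1 and Klrb1c). The mean deviation of the list ran from -0.12 to 1.07 after T-PNU, from -0.94 to 0.14 after T-DM1, from -1.18 to 0.76 in untreated and from -0.94 to 0.88 in trastuzumab samples. Of the 9 macrophage and monocyte genes 4 were called higher after T-PNU, Adgre1, C1qa, C1qb and Lyz2. Of 6 dendritic cell genes Xcr1 at 1.19 (limma adjusted p = 0.00573) and Clec9a at 0.835 were called higher, and the list's mean deviation ran from -0.05 to 0.76 after T-PNU and from -0.61 to -0.04 after T-DM1. Of 6 neutrophil genes Retnlg at 0.844 and Ly6g at 0.437 were called higher (limma adjusted p = 0.00637 and 0.0421), with mean deviations from -0.02 to 0.94 after T-PNU and from -0.64 to 0.19 after T-DM1. B cell genes had none called among 4 despite a median of 1.02, since they ran from -2.05 to 2.26 within T-PNU alone. The part of these cells in the members' differences was not tested.

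Ifng itself, which encodes the ligand, was called in none of the 6 comparisons over all 24 samples. It ran from 6.27 through 7.15 to 7.36 after T-PNU, from 5.78 through 6.18 to 6.48 after T-DM1, from 5.81 through 5.98 to 8.40 in untreated tumors and from 5.86 through 6.95 to 7.70 after trastuzumab. T-PNU minus T-DM1 was 0.86 (SE 0.37, interval 0.09 to 1.63, limma adjusted p = 0.0802), and T-PNU minus trastuzumab was 0.0034 (interval -0.76 to 0.77). Its highest value was that of untreated C1, the sample that also led in 4 members.

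In the other genes of the pathway, 4 of 14 genes of the ligand, receptor and signal list were higher after T-PNU than after T-DM1 and none lower. They were the kinase gene Jak2 at 0.26 (SE 0.0915, limma adjusted p = 0.0377), Irf8 at 0.54, Irf2, a counterpart of Irf1, at 0.405, and Pias1, which encodes a SUMO ligase, at 0.43. The receptor chains were not called, with Ifngr1 at 0.69 (limma adjusted p = 0.0651) and Ifngr2 at 0.24, nor were the feedback inhibitors Socs1 at 0.07 and Socs3 at -0.10. Of 16 IFN-γ targets outside the GTPases only Cd274, which encodes PD-L1, was called, at 0.57 (limma adjusted p = 0.0279). The chemokine genes Cxcl9 at 0.39 and Cxcl10 at 0.38, and the antigen-processing genes Psmb8 at -0.12 and Tap1 at 0.18, were not. These counts use all 24 samples. With the 20 samples of the study's heatmaps, 9 of the 14 signal genes were called higher and 1 lower in T-PNU minus T-DM1. Of the 16 targets 4 were called higher, where 19.8% of all genes were. In T-PNU minus untreated those samples called 10 of the 14 higher and 1 lower, where 15.3% of all genes were higher.

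Other interferon-inducible GTPases had a median near that of the 9 members and a larger share of calls. Of 19 listed, 17 were measured, 8 were higher after T-PNU than after T-DM1 and none lower, with a median difference of 0.59. Gbp6 at 0.81 and Gm4951 at 0.80 led the list, Ifi47 and Tgtp2 stood at 0.59 and 0.58, and Gbp4 at 0.64 (limma adjusted p = 0.0612) and Irgq at 0.14 were not called. Of 15 type I interferon targets 0 were called in that comparison, with a median of 0.27. Mx1 stands in both lists. The 16 IFN-γ targets outside the GTPases had a similar median of 0.23 there, with 1 called. Against untreated tumors the type I list had a median of 0.66 after T-PNU and 0.37 after T-DM1, with 0 of 15 and 1 of 15 called, the latter Irf7. With the 20 samples of the study's heatmaps these medians were 0.776 and 0.465. Called higher were then 15 of 15 and 3 of 15. In T-PNU minus untreated those samples also called 15 of 17 other GTPases and 12 of 12 T cell and NK cell genes. The share of all genes called higher there was 15.3%, and it was not computed for T-DM1 minus untreated. Of 11 genes for GTPase loading and GBP-linked inflammasomes, Aim2 at 0.68 and Casp4 at 0.58 were higher after T-PNU than after T-DM1, and the 5 autophagy genes Atg3, Atg5, Atg7, Atg12 and Atg16l1 lay between 0.08 and 0.24 without a call. The counts in T-PNU minus T-DM1 are to be read against the 12.4% of all genes called higher. Those against untreated tumors with 24 samples stand against 0.188% (T-PNU) and 6.27% (T-DM1) called in either direction.

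**Figure D3:**
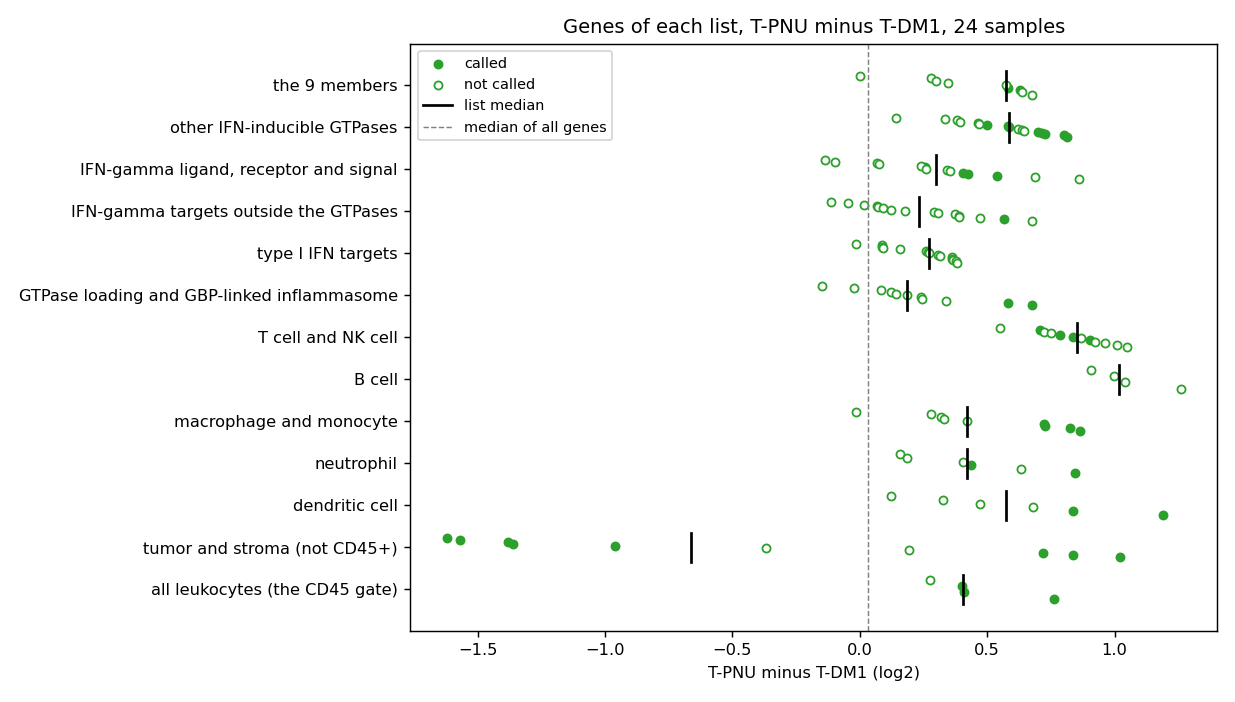
T-PNU minus T-DM1 on the log2 scale (x axis) for each gene (points, filled where the limma adjusted p was under 0.05) of the 9 members and of 12 lists (y axis), with the list medians (bars) and the median of all genes (dashed line). The members and the other GTPases have medians of 0.58 and 0.59, the T cell and NK cell and leukocyte lists also lie to the right, and the tumor and stroma list is split.

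Sample by sample, the members did not all move together. Over 36 pairs of members and 24 samples, r ran from 0.286 (Gbp2 with Irgm2) to 0.986 (Irgm2 with Igtp), with a median of 0.821. Irf1 followed Irgm1 (0.904), Iigp1 (0.878) and Igtp (0.872) and hardly followed Gbp2 (0.322). Gbp2 followed Gbp3 (0.891) and Gbp7 (0.865) and not Igtp (0.295). The points share libraries whose composition varied, so these values describe the set and are given without a test.

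**Figure D4:**
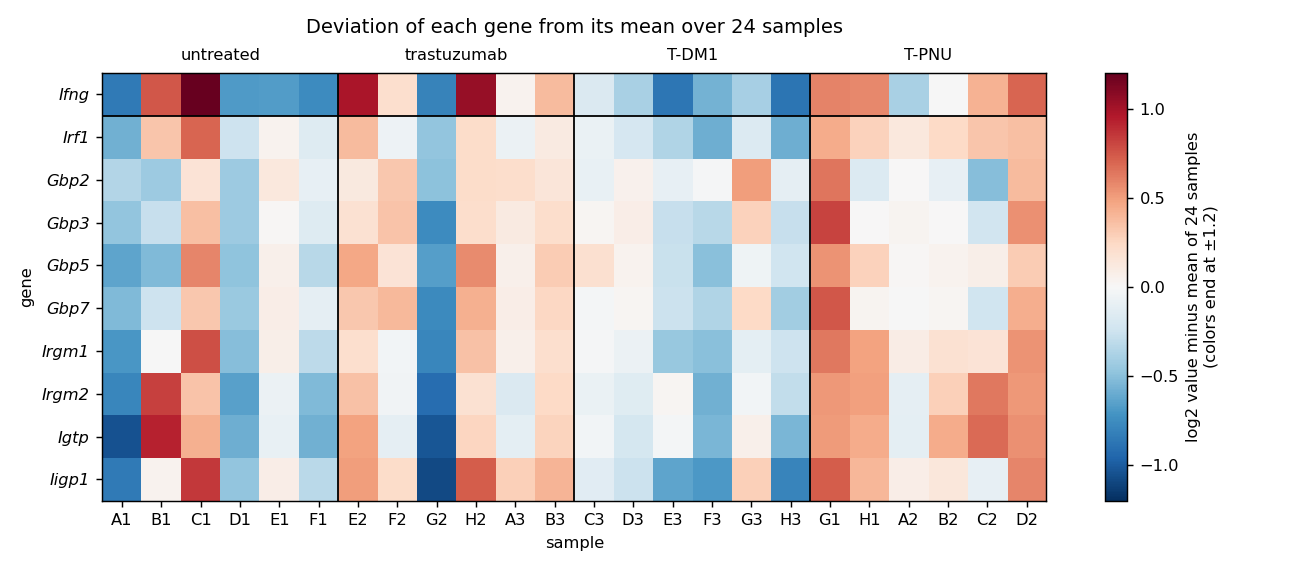
Log2 value minus the gene's mean over 24 samples (color, ending at ±1.2) for Ifng and the 9 genes (rows) in each sample (columns, by group). Trastuzumab G2 and untreated A1 are low and untreated C1 and T-PNU G1 high in nearly all rows, while untreated B1 and T-PNU C2 are high for Irgm2 and Igtp and low for Gbp2 and Gbp3.

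The extremes lay in few samples. Trastuzumab G2 was the lowest of all 24 samples in 6 of the 9 members, and its mean over the members was 0.77 under their average. Untreated A1 was next, at 0.66 under. At the top were T-PNU G1, with a mean deviation of 0.62, and untreated C1, with 0.50. Without trastuzumab G2, the difference of T-PNU and trastuzumab turned from 0.14 to -0.018 for Gbp3 and from 0.13 to -0.12 for Iigp1, and for Igtp it went from 0.46 to 0.26. T-PNU samples alone kept the mean of the 9 members above the 24-sample average in every mouse, from 0.01 in A2 to 0.62 in G1.

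Irgm2 and Igtp parted from the GBPs in untreated B1 and T-PNU C2. In untreated B1 Irgm2 and Igtp lay 0.87 above and the 4 GBPs 0.37 below their averages, a gap of 1.24. In T-PNU C2 they lay 0.66 above and 0.23 below, a gap of 0.89. The other IRGs did not follow Irgm2 and Igtp there, as Irgm1 was 14.04 in B1, within the middle of its range, and Iigp1 at 13.35 in C2 was the lowest of the T-PNU group. Elsewhere in the untreated group the gap was as low as -0.42, in A1, and in T-PNU as low as -0.17, in G1. Untreated B1 and T-PNU C2 were rich in B cell genes, with mean deviations of 2.01 and 2.08. These were also high in T-PNU H1 (2.26), trastuzumab E2 (2.26) and trastuzumab B3 (1.99). The gaps there were 0.43, 0.15 and 0.02. Over 24 samples the gap had r of 0.747 with the ligand, receptor and signal list, the highest of 12 lists, 0.702 with the B cell list, 0.687 with the T cell and NK cell list, 0.672 with the leukocyte list, -0.334 with the macrophage and monocyte list and -0.544 with the tumor and stroma list. Without B1 and C2, the samples with the widest gaps, these were 0.784, 0.731, 0.787, 0.751, 0.129 and -0.268. The dendritic cell list went from 0.208 to 0.577, and the other lists lay between -0.071 and 0.43 before and 0.322 and 0.585 after. The part of cell composition in the gap was not tested.

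**Figure D5:**
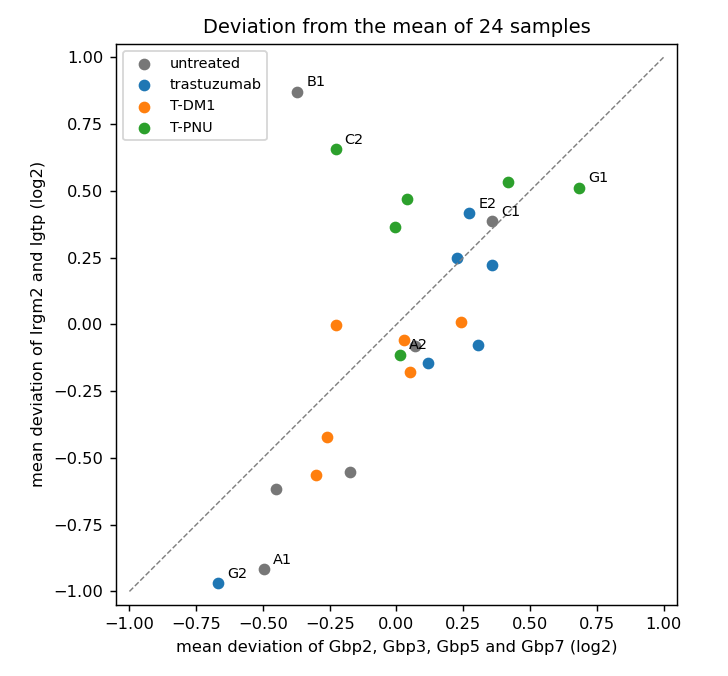
Mean deviation of Irgm2 and Igtp (y axis) against that of Gbp2, Gbp3, Gbp5 and Gbp7 (x axis) from their averages over 24 samples, on the log2 scale, 1 point per sample, colored by group, with the line of equal deviation. Untreated B1 and T-PNU C2 lie far above the line, with gaps of 1.24 and 0.89, and trastuzumab G2 and untreated A1 lie at the lower left.

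Among the 16987 other genes, Gbp4 was the one most like the mean of the members, with r of 0.98 over 24 samples, followed by Tgtp2 (0.956), Gbp10 (0.954), Gbp8 (0.949) and Gm4841 (0.946). Without trastuzumab G2 and untreated A1, the samples farthest from the median of the members' mean, Gbp4 still had 0.97 and Gm4841 0.929. Ifng ranked 48 at 0.834. Gzmb, a cytotoxic granule gene, stood at 0.839 and Cd8a at 0.787, against 0.541 for the general T cell gene Cd3e. Ifngr2 at 0.0917 and Jak1 at 0.297 hardly followed the members.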

How the data were processed

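CD45+ cells of 24 EMT6-hHER2 tumors were profiled by stranded mRNA-seq, 6 mice per group. The authors aligned reads with STAR (2.4.2a) to mm10, counted them per gene with featureCounts of Subread (1.5.0) on the reverse strand and removed genes of low average count. They deposited log2 values normalized for library size for 16996 genes, of which 2417 have no symbol. The transformation is not given in the sources used here, and log2 differences may be understated if it shrinks low values. Depth is unknown, so no count model and no counting interval could be had.

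Groups were taken from the sample labels, which give no shared replicate numbers. limma 3.58.1 in R 4.3.3 was run on the deposited log2 values of all 24 samples (lmFit, contrasts.fit, eBayes with a trend), with 4 groups in 1 fit, 6 comparisons, no covariate and Benjamini-Hochberg adjustment over 16996 genes. Genes were called at an adjusted p under 0.05. The fit was tested on simulated data with known changes. A list's mean deviation averages, over its genes, the value in a sample minus the gene's 24-sample mean. Likeness is Pearson's r with the mean of the members. Named genes are the 9 members, the 5 genes most like them, and members of 12 lists by role. Members and lists were chosen with earlier results of these data known. Alternatives were the 20 samples of the study's heatmaps, quantile normalization, genes above the median mean, fits of 2 groups, sample weights, a stricter threshold, each sample left out and, chosen after seeing the data, values relative to 4 leukocyte genes. Some genes that this rule covers are left out of the text. High and low responder classes are not in the labels and were not used. Positions are from GENCODE M21 on GRCm38 and promoters from RefSeq. Figures were drawn with matplotlib 3.10.9. Each library is 1 mouse, so p-values reflect the spread between mice.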

Additional observations from a re-analysis of the deposited data

Results flagged for a closer look

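Of 40 sets of 6 samples examined (9 members and Ifng in 4 groups), 7 held a sample whose gap to its nearest neighbor exceeded Dixon's 95% limit for 6 samples, where chance gives about 1 in 20. Trastuzumab G2 lay below the rest of its group in 5 members, at 14.9 for Gbp2, 12.9 for Gbp3, 12.4 for Gbp7, 13.3 for Irgm1 and 12.4 for Iigp1. T-DM1 G3 lay above its group for Gbp2, at 15.9. T-PNU A2 lay below its group for Igtp, at 13.2. These libraries were kept, and the values without each of them are among the fits that leave out 1 sample.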

How the results depend on the processing

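Quantile normalization and the restriction to genes above the median mean kept the direction and the side of the threshold of all 54 differences of the 9 members in the 6 comparisons. With the 20 samples of the study's heatmaps 37 of 54 were kept, 11 passed the threshold anew and 6 changed sign. Members called rose to 5 in T-PNU minus untreated, 3 in T-PNU minus trastuzumab and 5 in T-PNU minus T-DM1. The changes of sign were T-DM1 minus untreated for Irgm1 (0.13), Irgm2 (0.32), Igtp (0.36) and Iigp1 (0.0228), and T-DM1 minus trastuzumab for Irgm2 (0.0511) and Igtp (0.0292), none of them called. Sample weights gave 7 members in T-PNU minus untreated and 5 in T-PNU minus T-DM1, and turned T-DM1 minus untreated for Irgm1 (0.0677), Irgm2 (0.21) and Igtp (0.22) and Gbp2 in T-PNU minus trastuzumab (0.015) and T-PNU minus T-DM1 (0.0748). Fits of only the 2 groups gave 6 members in T-PNU minus T-DM1. At an adjusted p under 0.01 with a fold change above 2 there were 0. Relative to the 4 leukocyte genes there were 0, and Gbp3 (-0.18), Gbp5 (-0.12) and Gbp7 (-0.16) changed sign. The causes were not tested.

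Leaving out 1 sample at a time, 0 to 2 members were called in T-PNU minus untreated, 1 to 5 in T-PNU minus T-DM1 and 0 in the others. The share of all genes called was not computed for these fits. Of 1296 differences in these fits 38 changed sign, all small and none called. In T-DM1 minus untreated they ranged from -0.0546 to 0.12 for Gbp7, -0.24 to 0.0586 for Irgm1, -0.17 to 0.15 for Irgm2 and -0.24 to 0.16 for Igtp. In trastuzumab minus untreated they ranged from -0.00249 to 0.29 for Irgm1, -0.0442 to 0.28 for Irgm2, -0.0593 to 0.33 for Igtp and -0.12 to 0.14 for Irf1. In T-PNU minus trastuzumab they ranged from -0.17 to 0.0649 for Gbp2, -0.018 to 0.23 for Gbp3, -0.11 to 0.14 for Gbp5, -0.13 to 0.13 for Gbp7 and -0.12 to 0.24 for Iigp1. Gbp2 ranged from -0.12 to 0.11 in T-PNU minus T-DM1 and from -0.16 to 0.000738 in T-DM1 minus trastuzumab. No paired analysis was possible because the labels give the groups no shared replicate numbers. Without counts, the depth behind low values such as those of Ifng is unknown.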
